A study of Homo sapiens with 4 samples.

Results

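The genes described here encode proteins of the mitochondrial ribosome. They were chosen by symbol alone, as the rows named MRPL or MRPS followed by a number and at most 1 letter from A to C on the reference chromosomes, and 76 of the 24934 gene rows met this rule. Of these, 47 were MRPL genes, named for the large subunit, and 29 were MRPS genes, named for the small subunit. The 76 genes lay on 21 chromosomes. RNA was sequenced from cells of the established human embryonic kidney line HEK-293 after transfection of siRNA at 10 nM for 48 h. There were 4 libraries, 1 for each treatment: si4 and si5, which both target ZSCAN5A, si1, which targets ZSCAN5B, and a scrambled siRNA that served as the control. The ZSCAN5 genes code for zinc finger proteins with a SCAN domain, and the study asked which genes differ when they are depleted. Because no treatment was repeated, the differences below could not be checked against replicates, and they carry no p-value.

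The mitochondrial ribosome makes the few proteins that the mitochondrial genome encodes, all of them core subunits of the respiratory chain and the ATP synthase. Its RNAs come from mitochondrial DNA, but all of its proteins are coded in the nucleus, translated by cytosolic ribosomes and imported. Some of these proteins descend from bacterial ribosomal proteins and others are found only in mitochondria. Their promoters are known for sites of NRF1, of ETS factors such as GABP and of YY1, the factors that serve many nuclear genes for mitochondrial proteins.

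Each value is an FPKM, the number of fragments for each kilobase of a transcript, corrected for library size, so levels can be compared between genes. The sums of FPKM over all rows ran from 488036 in the control to 546239 with si4. From the steps between low values the libraries were estimated to hold about 53800000 fragments for the control, 58700000 for si4, 83000000 for si5 and 54600000 for si1. ZSCAN5A was at 2.42 FPKM in the control against 0.730, 0.713 and 2.53 FPKM for si4, si5 and si1. ZSCAN5B was at 0.0903 FPKM in the control and 0.0948 with si1, estimated at only 8.77 and 9.35 fragments. The log2 ratio was 0.07 with a counting error of 0.68, too few fragments to check the knockdown, and si1 is called the library labelled ZSCAN5B knockdown. Of the markers of this line, VIM, KRT8, KRT18, NEFL and NEFM were between 8.46 and 359 FPKM in every library. PAX2 was at 1.16 FPKM in the control and at most 0.615 in the other 3 libraries, and the blood, liver, endothelial and muscle markers PTPRC, ALB, PECAM1 and MYH7 did not pass 0.0335 FPKM in any. COL1A1, a fibroblast marker, lay between 1.102 and 1.848 FPKM.

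All 76 genes were detected, and each had at least 1 FPKM in every library. In the control the MRPL genes had a median of 46.6 FPKM and the MRPS genes a median of 42.5 FPKM, and the middle 50% of the MRPL genes, from 26.3 to 71.7 FPKM, covered nearly the same range as that of the MRPS genes, from 26.9 to 64.2 FPKM. The 5 highest in the control were MRPL33 at 231 FPKM, MRPL51 at 191 FPKM, MRPS34 at 190 FPKM, MRPL12 at 165 FPKM and MRPS21 at 162 FPKM. The 5 lowest were MRPL1 at 9.43 FPKM, MRPL22 at 13.6 FPKM, MRPS18C at 14.5 FPKM, MRPL19 at 14.6 FPKM and MRPS25 at 15.3 FPKM. Highest and lowest differed 24.5-fold, although an assembled ribosome holds most of these proteins in equal number. MRPL12, for which the ribosome has several copies in its stalk, was among the highest, and MRPL1, a protein of the L1 stalk, was the lowest.

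**Figure D1:**
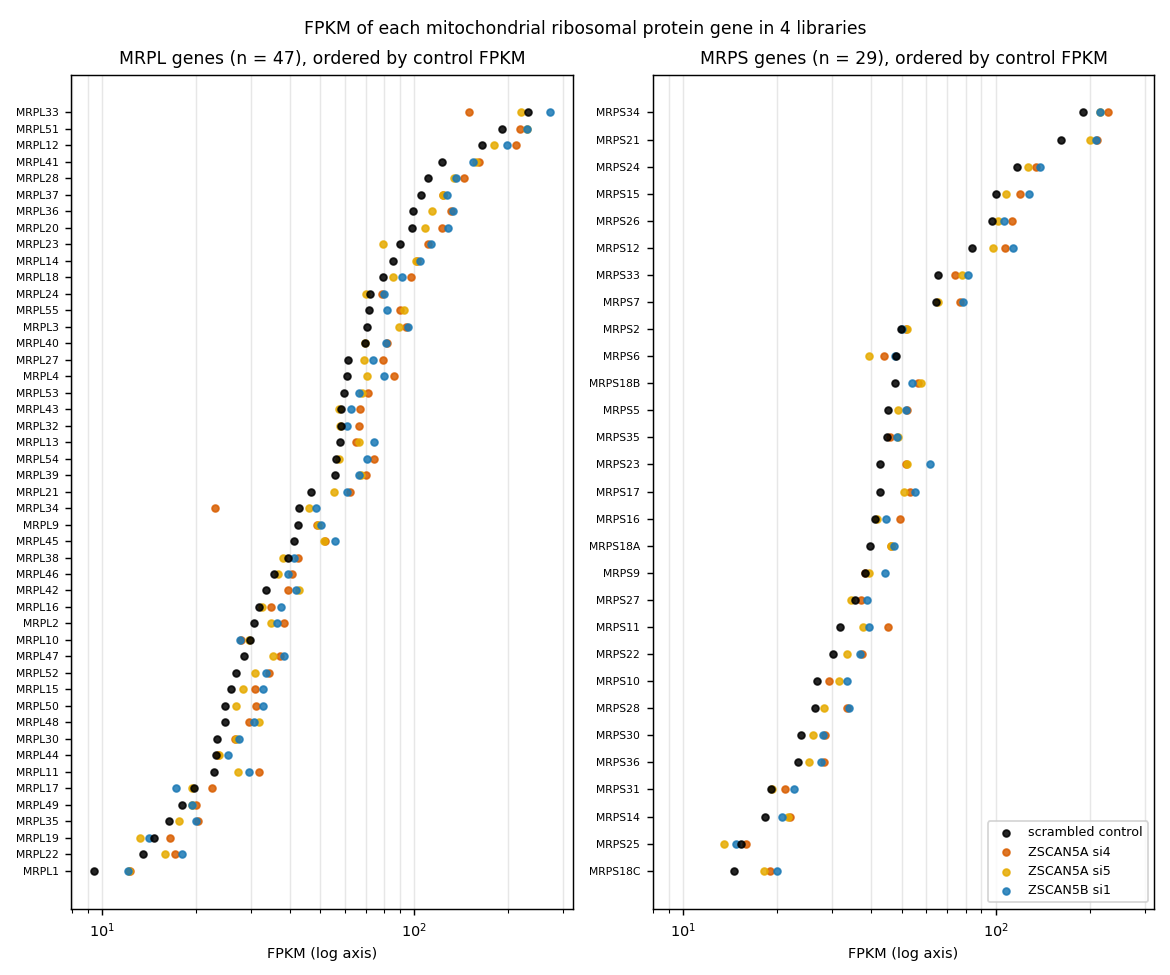
FPKM (log axis) of the 47 MRPL genes (left) and 29 MRPS genes (right) in the scrambled control (black), with ZSCAN5A si4 (orange), ZSCAN5A si5 (yellow) and ZSCAN5B si1 (blue), ordered by the control. Each point is 1 library; for 62 of 76 genes the control is the lowest of the 4 points, and the si4 points of MRPL33 and MRPL34 lie apart to the left.

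The genes with a bacterial counterpart and those particular to mitochondria had like levels. The 46 genes with a counterpart had a control median of 45.8 FPKM, and the 29 without had a control median of 39.3 FPKM. MRPL55 was left out of both classes. The 3 paralogues MRPS18A, MRPS18B and MRPS18C, which all descend from bacterial S18, had 39.6, 47.6 and 14.5 FPKM in the control. MRPS18A and MRPS30 sit in the large subunit in spite of their names. MRPS30 had 23.9 FPKM. MRPS36, now known as a part of the 2-oxoglutarate dehydrogenase complex rather than of the ribosome, had 23.2 FPKM.

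The mitochondrial ribosomal protein genes were far below those of the cytosolic ribosome. In the control the 84 rows of cytosolic ribosomal protein genes had a median of 1499 FPKM, the 85 rows of nuclear oxidative phosphorylation genes a median of 115 FPKM and the 22 rows of TOMM and TIMM genes, which code for the import machinery, a median of 47.3 FPKM. Of the summed FPKM of a library, MRPL genes made up 0.573% in the control, and 0.596%, 0.577% and 0.627% for si4, si5 and si1. MRPS genes made up 0.324%, 0.342%, 0.326% and 0.352% in the same order. The sum for MRPL was 1.76 times that for MRPS in the control, and 1.74, 1.77 and 1.78 times for si4, si5 and si1.

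The promoters show which sequences these genes share. RefSeq windows of GRCh38.p14, from 250 bases before to 50 bases after each start, were found for 67 of the 76 genes, in 83 windows, and 9 motifs were searched on both strands. They are NRF1 (GCGCANGCG), ETS (CCGGAAG), YY1 (AAGATGGC), E-box (CACGTG), SP1 (GGGCGG), CRE (TGACGTCA), NFY (CCAAT), an HCFC1-associated motif (ACTACAA) and the Pol III B-box (GTTCGANNC), and matches of different motifs overlapped in 1 window. The ETS motif was found in 38.6% of the members' windows and in 10.3% of all 35116 windows. The YY1 motif stood in 27.7% against 2.89%, and the NRF1 motif in 16.9% against 7.52%. At least 1 of these 3 motifs was present in 52 of the 83 windows, 62.7%, against 18.4% of all windows. SP1 was found in 60.2% against 45.0%, NFY in 33.7% against 34.6%, the E-box in 10.8% against 7.26% and the HCFC1-associated motif in 9.64% against 2.77%. A CRE was found in 1.20% against 1.85%, and the B-box, a motif of Pol III genes, in none of the 83 windows against 0.83% of all. Starts of broadly expressed genes differ from others in base composition, and the shares were not adjusted for this.

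**Figure D2:**
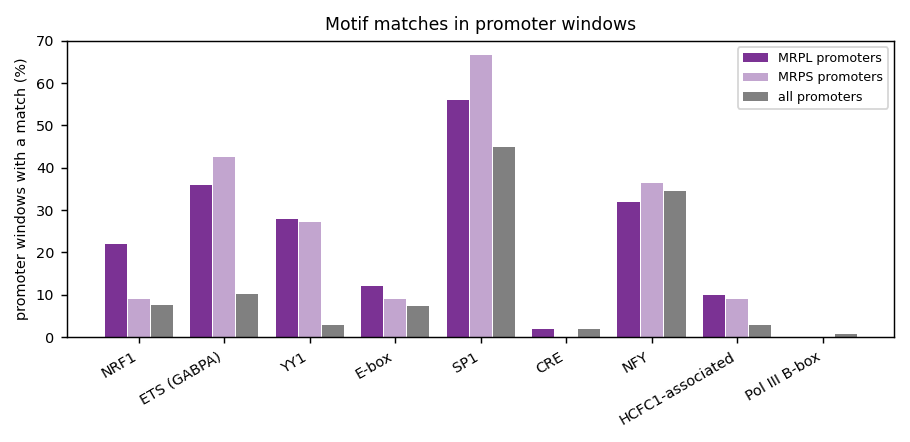
Share of promoter windows (%) with at least 1 match of each of 9 motifs, for MRPL (dark purple), MRPS (light purple) and all RefSeq promoter windows (grey). ETS and YY1 stand well above the grey bars in both subunits, while NRF1 reaches 22% in MRPL and 9.09% in MRPS windows against 7.52% of all.

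The part before the start makes up 83.3% of a window, and its last 50 bases 16.7%. Counted in each window, of 43 ETS matches 37 lay before the start, 86.0% against 83.9% of the ETS matches in all windows. Within the last 50 bases before the start lay 24 of them, 55.8% against 34.5%. All 17 NRF1 matches lay before the start, as did 91.1% of those in all windows. Of 24 YY1 matches, which hold the letters ATG, 16 lay after the start, 66.7% against 49.5% in all windows. The 120 bases before the start are shown for 6 genes with no other gene in that stretch, with matches of the ETS, NRF1 and HCFC1-associated motifs on either strand in capitals and those of the other motifs left in lower case. MRPL33 and MRPL51 are the 2 genes highest in the control, MRPS23 had the highest ratio to the control with si1, MRPS18A holds both an ETS and an HCFC1-associated match, and MRPL22 and MRPL17 show the NRF1 motif. They lie, in that order, at chr2:27771599-27771718 on the plus strand, chr12:6493263-6493382 on the minus strand, chr17:57850045-57850164 on the minus strand, chr6:43687792-43687911 on the minus strand, chr5:154940953-154941072 on the plus strand and chr11:6683341-6683460 on the minus strand, all in GRCh38.p14.
MRPL33: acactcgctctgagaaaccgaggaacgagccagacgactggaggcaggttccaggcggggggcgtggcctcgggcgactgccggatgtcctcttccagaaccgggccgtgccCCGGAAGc
MRPL51: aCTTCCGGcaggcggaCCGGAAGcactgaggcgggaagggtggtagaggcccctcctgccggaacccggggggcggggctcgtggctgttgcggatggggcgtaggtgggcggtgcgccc
MRPS23: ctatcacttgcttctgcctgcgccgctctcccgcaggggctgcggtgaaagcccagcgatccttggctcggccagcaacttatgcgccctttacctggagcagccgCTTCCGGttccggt
MRPS18A: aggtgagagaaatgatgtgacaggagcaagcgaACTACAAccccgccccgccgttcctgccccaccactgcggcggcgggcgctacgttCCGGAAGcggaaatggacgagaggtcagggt
MRPL22: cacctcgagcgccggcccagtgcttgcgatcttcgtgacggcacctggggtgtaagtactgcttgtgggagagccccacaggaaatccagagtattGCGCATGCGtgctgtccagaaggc
MRPL17: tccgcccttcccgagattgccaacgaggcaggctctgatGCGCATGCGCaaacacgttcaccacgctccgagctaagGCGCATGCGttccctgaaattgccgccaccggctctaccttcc

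In these stretches the ETS match of MRPL33 begins 8 bases before the start and that of MRPS23 begins 14 bases before it. The YY1 match is shown with 8 bases on either side for MRPS18A, MRPS18B, MRPL45 and MRPL51, where it begins 10, 24, 14 and 22 bases into the transcript and is in capitals.
MRPS18A: ggtttttgAAGATGGCggccctca
MRPS18B: cgtacgtcAAGATGGCggcgtctg
MRPL45: gcgggaacAAGATGGCagccccca
MRPL51: taaggcccAAGATGGCtgtcttcg

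These sites are at chr6:43687767-43687790 on the minus strand, chr6:30617855-30617878 on the plus strand, chr17:38297173-38297196 on the plus strand and chr12:6493226-6493249 on the minus strand of GRCh38.p14. A match of letters does not show that the factor binds there.

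The main comparisons set each siRNA against the control. With the ZSCAN5A siRNAs, taken as the mean of si4 and si5, the 76 genes had a median log2 ratio of 0.22, a fold of 1.16, and 71 of them exceeded the control. For the library labelled ZSCAN5B knockdown the median log2 ratio was 0.26, a fold of 1.19, and 71 were likewise higher. Over all genes of at least 1 FPKM the medians were -0.02 and -0.01, and 46.7% and 48.5% were higher. Taken singly, si4 gave a median of 0.26 with 71 genes higher, and si5 a median of 0.14 with 64 genes higher, where 47.9% and 45.0% of all genes were higher. With si4, si5 and si1 alike, 62 of the 76 genes, 81.6%, exceeded the control, against 30.0% of all genes. The 3 ratios share the control library, which was the lowest of the 4 for those 62 genes.

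**Figure D3:**
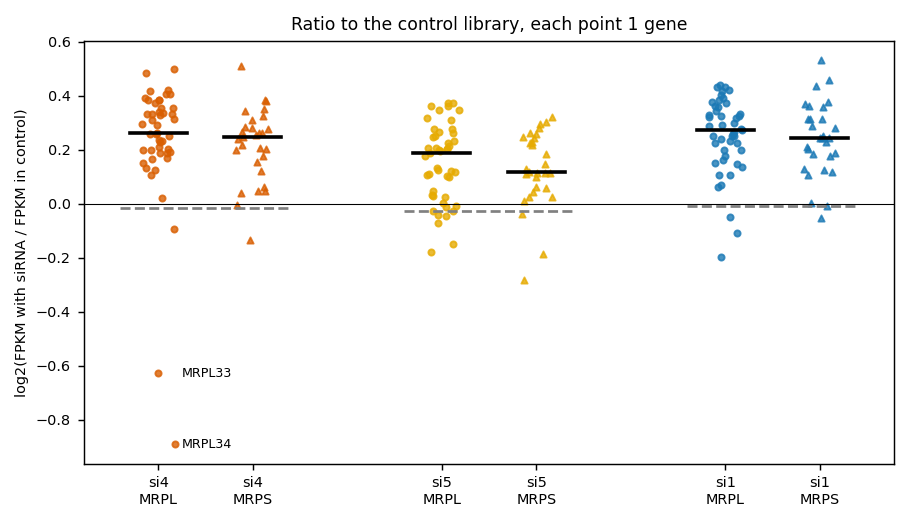
log2 of the FPKM with si4, si5 or si1 over the FPKM in the control for each MRPL gene (circles) and MRPS gene (triangles); black bars are the medians of the genes and grey dashed lines the medians of all genes of at least 1 FPKM. The medians of the genes lie between 0.12 and 0.27, and MRPL33 and MRPL34 are at -0.63 and -0.89 with si4.

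The differences were small. None of the 76 genes passed 1.5-fold in either direction with the mean of the ZSCAN5A siRNAs or in the library labelled ZSCAN5B knockdown, where 0.677% and 0.844% of all genes were higher and 3.11% and 3.17% lower by that limit. At a limit of 125% of the control, 13 genes were higher with the ZSCAN5A siRNAs, 17.1% against 5.14% of all genes, and 24 with si1, 31.6% against 6.70%. The counting error, estimated from about 596 to 28046 fragments a gene in the control, gave a standard error of the log2 ratio with a median of 0.033 for si4, 0.032 for si5 and 0.034 for si1. It covers counting error alone and not the spread between cultures.

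The size of the ratios depended on the scaling between libraries. With each library scaled to the same FPKM sum, the median log2 ratio of all genes moved to -0.17 and -0.15, that of the 76 genes to 0.07 and 0.12, and 51 and 61 of them were higher. The share of all genes that were higher was not counted under this scaling. The median of the 76 genes kept its sign under median-ratio and upper-quartile scaling too.

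Transcript length moved with the ratios over the table as a whole. The annotated transcripts of the 76 genes had a median length of 1242 bases and 5 exons, and those of all genes of at least 1 FPKM had a median of 3309 bases and 9 exons. Among all genes the median log2 ratio for ZSCAN5A ran from 0.19 for transcripts under 600 bases to -0.09 for those of at least 4000 bases, and for ZSCAN5B from 0.18 to -0.09. Among the mitochondrial ribosomal protein genes it did not follow length. It was 0.21 for the 22 genes from 600 to under 1000 bases, 0.23 for the 22 from there to under 1500 bases, 0.22 for the 16 from there to under 2500 bases, 0.21 for the 7 from there to under 4000 bases and 0.21 for the 6 of at least 4000 bases. In the library labelled ZSCAN5B knockdown the same medians were 0.26, 0.25, 0.31, 0.29 and 0.27. Spearman's rho between length and ratio was -0.01 and -0.05 over the 76 genes, and -0.33 and -0.34 over all genes, as a description across genes of the same libraries. When the median ratio of the 200 other genes nearest in length and GC content was subtracted, the medians of the 76 genes were 0.12 and 0.14. Of them, 57 and 65 were then above 0, and the medians of all genes were 0.0007 and 0.0002. The part of length in the ratios was not tested further.

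**Figure D4:**
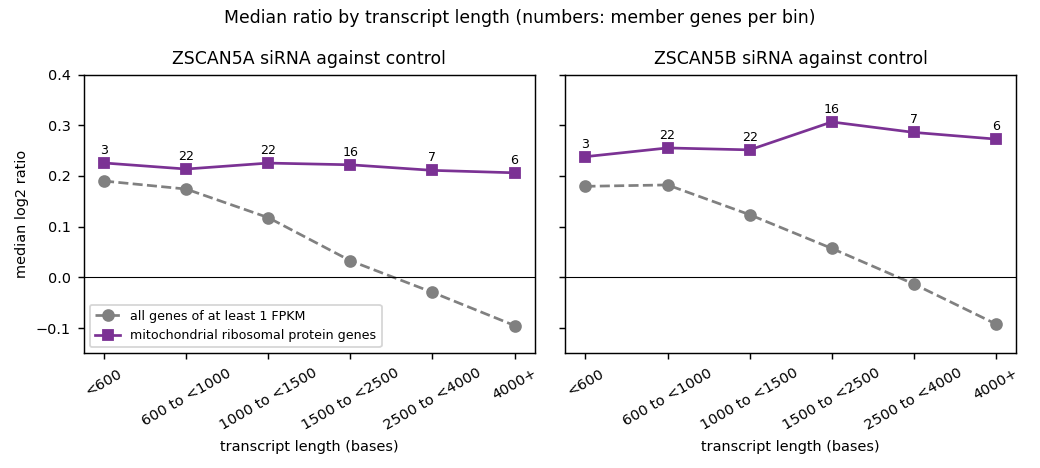
Median log2 ratio to the control (y axis) by transcript length in bases (x axis) for all genes of at least 1 FPKM (grey circles) and the mitochondrial ribosomal protein genes (purple squares, with their number), for the mean of the ZSCAN5A siRNAs (left) and for si1 (right). The grey medians go from 0.19 and 0.18 down to -0.09, and the purple ones stay between 0.21 and 0.31.

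The ratios of MRPL and MRPS genes lay close together. The median log2 ratio of MRPL was 0.23 and that of MRPS 0.19 with the ZSCAN5A siRNAs, a difference of 0.04. In the library labelled ZSCAN5B knockdown they were 0.27 and 0.24, a difference of 0.03. The difference was 0.02 with si4 and 0.07 with si5, so the siRNAs against the same gene differed by about as much as the subunits did. All 3 siRNAs gave higher values for 37 of 47 MRPL genes and 25 of 29 MRPS genes. By descent, the median for ZSCAN5A was 0.21 over the 46 genes with a bacterial counterpart and 0.23 over the 29 without, and for ZSCAN5B 0.28 and 0.24. The order of these classes thus turned between the comparisons.

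The highest ratios with the ZSCAN5A siRNAs were those of MRPL3, MRPS11, MRPL11, MRPL1 and MRPL41. MRPL3, a core protein near the peptidyl transferase centre, was at 70.3 FPKM in the control against 94.0, 89.5 and 95.4 FPKM for si4, si5 and si1. All 3 siRNA libraries lay above the control and close to each other, with log2 ratios of 0.42, 0.35 and 0.44. MRPS11, a protein of the platform of the small subunit, was at 31.7 FPKM in the control against 45.2, 37.5 and 39.4 FPKM for si4, si5 and si1. Its si4 ratio of 0.51 was the highest of any member with that siRNA and stood well above the 0.24 of si5. MRPL11, a protein of the stalk base, had 22.8 FPKM in the control against 31.8, 27.3 and 29.5 FPKM for si4, si5 and si1. MRPL1 had 9.43 FPKM in the control against 12.3, 12.2 and 12.1 FPKM for si4, si5 and si1. The 3 siRNA libraries of MRPL1 differed by less than their counting error of about 0.08 in log2 ratio. MRPL41, one of the proteins without a bacterial counterpart, had 123 FPKM in the control against 161, 158 and 154 FPKM for si4, si5 and si1.

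In the library labelled ZSCAN5B knockdown the highest ratios were those of MRPS23, MRPS18C, MRPL3, MRPS12 and MRPL45. MRPS23, a protein of the small subunit without a bacterial counterpart, had 42.5 FPKM in the control against 51.7, 52.1 and 61.5 FPKM for si4, si5 and si1. Its si1 ratio of 0.53 on the log2 scale stood apart from those of si4 and si5, at 0.28 and 0.29. After the subtraction of the length and GC trend, which was -0.08 for MRPS23, it was the only member past 1.5-fold, at 0.61. By that limit 0.533% of all genes were higher after the same subtraction. MRPS18C had 14.5 FPKM in the control against 18.9, 18.1 and 19.9 FPKM for si4, si5 and si1, and its paralogues were also higher in all 3, with log2 ratios from 0.22 to 0.25 for MRPS18A and from 0.18 to 0.28 for MRPS18B. MRPS12, the protein of the decoding centre, had 84.0 FPKM in the control against 107, 97.7 and 114 FPKM for si4, si5 and si1. MRPL45 had 41.2 FPKM in the control against 51.9, 51.4 and 55.6 FPKM for si4, si5 and si1, and its pseudogene MRPL45P2 was listed at 4.07 to 5.23 FPKM. The genes in this paragraph and the last exceeded the control in each siRNA library.

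**Figure D5:**
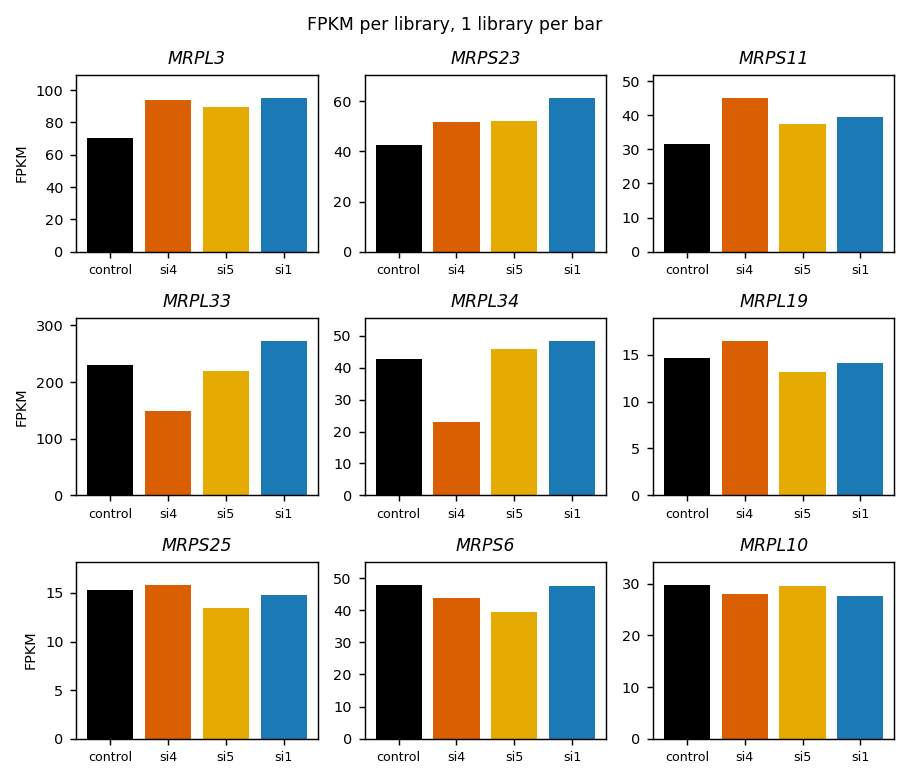
FPKM in the control (black), with si4 (orange), si5 (yellow) and si1 (blue) for 9 genes, 1 library per bar and each axis from 0. MRPL3, MRPS23 and MRPS11 are lowest in the control, MRPL33 and MRPL34 are lowest with si4 alone at 149 and 23 FPKM, and MRPL19, MRPS25, MRPS6 and MRPL10 have at least 1 siRNA library below the control.

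In contrast, 14 of the 76 genes were below the control with at least 1 siRNA, 8 of them with 1 siRNA, 4 with 2 and 2 with all 3, where 36.6% of all genes were lower with all 3. These 2 were MRPS6 and MRPL10. MRPS6 had 47.9 FPKM in the control against 43.7, 39.4 and 47.7 FPKM for si4, si5 and si1, so that only si5, with a log2 ratio of -0.28, and si4, with -0.13, were past the counting error of 0.04. Its locus encloses that of SLC5A3 on the same strand. MRPL10 had 29.8 FPKM in the control against 27.9, 29.6 and 27.7 FPKM for si4, si5 and si1. Its si5 log2 ratio of -0.008 was within the counting error of 0.035. MRPS25 was at 15.3 FPKM in the control against 15.8, 13.4 and 14.8 FPKM for si4, si5 and si1. MRPL19 was at 14.6 FPKM in the control against 16.5, 13.2 and 14.1 FPKM for si4, si5 and si1. MRPL17 was at 19.8 FPKM in the control against 22.5, 19.4 and 17.2 FPKM for si4, si5 and si1, and its log2 ratio of -0.20 was the lowest with si1. For MRPS25, MRPL19 and MRPL17 the siRNAs against ZSCAN5A thus lay on either side of the control. For MRPL17 the si5 log2 ratio of -0.03 was within its counting error of 0.04. For MRPS25 the si4 ratio was 0.05 with a counting error of 0.03.

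MRPL33 and MRPL34 stood apart with si4 alone. MRPL33, a small protein of the large subunit at hg19 chr2:27994584-28002608, had 231 FPKM in the control against 149, 220 and 272 FPKM for si4, si5 and si1. The si4 library was the lowest, with a log2 ratio to the control of -0.63 and a counting error of 0.03, while si5 gave -0.07 and si1 0.24. MRPL34, another small protein of the large subunit at hg19 chr19:17416477-17417652, had 42.8 FPKM in the control against 23, 45.8 and 48.4 FPKM for si4, si5 and si1. Its si4 ratio was -0.89 with a counting error of 0.06, and the other 2 siRNAs gave 0.10 and 0.18. These were the only 2 members past 1.5-fold with any siRNA, 2 of 76 where 5.21% of all genes were lower by that much with si4. The lower value of MRPL34 with si4 was not seen with si5, the other siRNA against ZSCAN5A, and the cause was not tested.

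The siRNA sequences were set beside the 3′ untranslated regions of the members, a comparison chosen after these values were seen. An siRNA can lower other transcripts that match its seed, bases 2 to 8 of the guide strand. The target sites are shown 5′ to 3′ as DNA, with the match to the seed in capitals. They lie in hg19 at chr19:56733332-56733352 and chr19:56733307-56733327, in the coding part of exon 6 of ZSCAN5A, and at chr19:56701591-56701611, in the coding part of exon 5 of ZSCAN5B, all on the minus strand. The last line is the stretch of MRPL34 around its match to the si4 seed, at chr19:17417614-17417635 on the plus strand, in the 3′ untranslated region within exon 2.
si4 target: cgagaagaggtttACGTGTAa
si5 target: aagctagtcatccACAAGAGa
si1 target: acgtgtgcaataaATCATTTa
MRPL34 site: attattaaACGTGTAataaatg

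The si4 seed match stood in the 3′ untranslated regions of 3 of the 76 genes, MRPL34, MRPL42 and MRPS23, and in 3.37% of the 11943 genes compared. In MRPL34 it was followed by A, as in the target, which makes a match of 8 bases, and MRPL34 was the only member with it. Over all genes, the 118 with this 8-base match had a median log2 ratio of si4 to the mean of si5 and si1 of -0.28, the 284 with the 7-base match alone a median of -0.13 and those with neither a median of 0.01. Of the 118 genes 22% were lower by more than 1.5-fold in this ratio, against 0.884% of those without a match. MRPS23 and MRPL42 had si4 ratios to the control of 0.28 and 0.23, near the median of the members. MRPL33 had no match to the si4 seed in its annotated 3′ untranslated region. The part of the seed match in the level of MRPL34 was not tested.

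The seeds of the other siRNAs were matched in the same way. The si5 seed match was found in 6 members and 12% of all genes, and the si1 seed match in 10 members and 23.5% of all genes. Of the 6 with the si5 match, MRPL19 and MRPS25 had si5 ratios of -0.15 and -0.19, and MRPL22, MRPL54, MRPS11 and MRPS23 had ratios from 0.03 to 0.29. The median ratio of si5 to the control was 0.13 over these 6 and 0.14 over the other members. Against the mean of the other 2 siRNAs, the measure used for si4, the medians were -0.18 and -0.10. With si1 the 10 genes with a match had a median ratio to the control of 0.32, above that of the other members, at 0.25. Against the other 2 siRNAs these medians were 0.06 and 0.04. Over all genes, the medians against the other 2 siRNAs were -0.04 with and -0.01 without the si5 match. For the si1 match they were -0.02 and 0.02. The match of 8 bases stood in MRPL22 and MRPS25 for si5 and in MRPL19 for si1. All genes with it had medians of -0.09 and -0.05. These differences were not tested.

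A direct comparison of the siRNA libraries does not involve the control. The median log2 ratio of si5 to si4 over the 76 genes was -0.10, and 20 of them were higher with si5, where 45.4% of all genes were. For si1 to si4 the median was 0.01. For si1 to si5 it was 0.10, with 62 higher against 55.6% of all genes. Only MRPL34 passed 1.5-fold between si5 and si4, 1 of 76 against 2.53% of all genes. After it, the largest differences were those of MRPL33, MRPL23, MRPL54 and MRPL19. MRPL23 was at 90.1 FPKM in the control against 110, 79.6 and 113 FPKM for si4, si5 and si1, so that si5 alone was below the control. MRPL54 was at 56.2 FPKM in the control against 74.4, 57.2 and 70.3 FPKM for si4, si5 and si1, and si5 did not differ from the control beyond the counting error of 0.04.

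Other gene groups had ratios of the same sign. The cytosolic ribosomal protein genes had medians of 0.31 for ZSCAN5A and 0.25 for ZSCAN5B, the oxidative phosphorylation genes 0.25 and 0.26, and the TOMM and TIMM genes 0.25 and 0.30. Of these groups, in the same order, 80, 77 and 21 genes could be compared. With all 3 siRNAs 96.3% of the cytosolic ribosomal protein, 92.2% of the oxidative phosphorylation and 95.2% of the TOMM and TIMM genes were higher. The share was 81.6% for the mitochondrial ribosomal protein genes and 30.0% for all genes. Values above the control were thus found in these groups too. With si5 the cytosolic ribosomal protein genes had a median of 0.31 where the mitochondrial ones had 0.14, and this difference between the groups was not tested.

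The partners of these genes were counted from lists. The 7 mitochondrial ribosomal proteins that carry other symbols were AURKAIP1, CHCHD1, DAP3, GADD45GIP1, ICT1, MRP63 and PTCD3, and all 7 were higher with each siRNA, with medians of 0.21 for ZSCAN5A and 0.28 for ZSCAN5B and none past 1.5-fold. DAP3, a GTP-binding protein of the small subunit, had 46.8 FPKM in the control against 60.2, 52.5 and 56.9 FPKM for si4, si5 and si1. ICT1, a hydrolase that frees stalled peptides and is built into the large subunit, had 39.9 FPKM in the control against 48.0, 44 and 49.8 FPKM for si4, si5 and si1. Of 38 genes for assembly of the ribosome and mitochondrial translation 32 were higher with the ZSCAN5A siRNAs and 33 with si1, with medians of 0.17 and 0.20, and none passed 1.5-fold. Of 9 transcription factors and coactivators of nuclear mitochondrial genes 5 were higher in each comparison, 55.6% against 46.7% and 48.5% of all genes. The 9 had medians of 0.03 and 0.003, and none passed 1.5-fold. With all 3 siRNAs 33.3% of the 9 were higher, against 30.0% of all genes. GABPA, which binds the ETS motif, had 18 FPKM in the control against 23.3, 23 and 23.3 FPKM for si4, si5 and si1. YY1 had 34.6 FPKM in the control against 38.3, 36.1 and 34 FPKM for si4, si5 and si1. NRF1 had 7.53 FPKM in the control against 7.43, 7.98 and 6.81 FPKM for si4, si5 and si1. These 3 factors were chosen for their motifs, and of them only GABPA was higher with every siRNA. In the rest of the list GABPB1 and ESRRA were higher with every siRNA, and PPRC1 and PPARGC1B were lower with every siRNA. PPRC1 had log2 ratios of -0.29, -0.42 and -0.41 for si4, si5 and si1.

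The ratios of the members were also set beside the motifs in their promoters. The 29 genes with an ETS match had median log2 ratios of 0.23 for ZSCAN5A and 0.27 for ZSCAN5B, and the 38 without had 0.20 and 0.24. The 21 genes with a YY1 match had 0.22 and 0.29, and the 46 without had 0.22 and 0.24. The 41 genes with SP1 letters had medians of 0.16 for ZSCAN5A and 0.21 for ZSCAN5B, and the 26 without had 0.27 and 0.31. This was the widest gap among the motifs with at least 10 genes on either side, was picked after all 9 had been looked at, and was not tested.

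Many of these genes start close to a neighbour on the opposite strand. A protein-coding gene started head to head within 1000 bases of 25 of the 76 genes, 32.9%, against 13.1% of 11989 expressed protein-coding genes. MRPS11 and MRPL46 form such a pair, with starts 320 bases apart. MRPL46 had 35.5 FPKM in the control against 40.7, 36.7 and 39.3 FPKM for si4, si5 and si1, a log2 ratio of 0.12 for ZSCAN5A against the 0.38 of MRPS11. Of the partners outside the family 21 could be compared, and 12 of them were higher than the control with the ZSCAN5A siRNAs and 10 with si1, with medians of 0.007 and -0.0008. The 21 members at the same starts were all higher in both comparisons, with medians of 0.23 and 0.27. MRPL10, lower in both at -0.05 and -0.11, was not among them, because its partner LRRC46 was under 1 FPKM in every library. For example, MRPL14 had 85.4 FPKM in the control and 102, 101 and 105 with si4, si5 and si1, while TMEM63B, starting 102 bases away, had 15.3 FPKM in the control and 11.3, 12.2 and 12.4 with the siRNAs. MRPL21 had 46.6 FPKM in the control and 62.4, 55.5 and 60.9 with si4, si5 and si1, and IGHMBP2, 59 bases away, had 4.58 FPKM in the control and 4.25, 4.23 and 4.06 with the siRNAs. These pairs were picked after their values were seen. In length the partners were not matched to the members.

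The values of 12 members are less certain, because their loci overlap another row of the table, among them MRPS12 with SARS2, MRPS25 with NR2C2, MRPS18C with FAM175A and MRPL49 with FAU. It is not given whether the FPKM calculation used strand, so reads of overlapping genes may not have been told apart. Without these 12, the medians of the other 64 were 0.23 and 0.26, and 61 of 64 were higher in each comparison.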

How the data were processed

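RNA of 4 HEK-293 samples, 1 per siRNA, was sequenced. The submitters' processing notes name CASAVA 1.8.2, Trimmomatic 0.30, TopHat2 2.1.0, Cufflinks 2.2.1 and hg19, and the authors deposited 1 FPKM value per gene row and library, with 0 other columns of per-sample values. The values were used without further scaling. A comparison took genes that reached 1 FPKM in any of its libraries and were at 0 on neither side, as ratios without a pseudocount, and ZSCAN5A was the mean of si4 and si5. The fold limit was 1.5. Depth came from 1745 genes under 0.1 FPKM, of which 70.2% stood in whole-number proportions (up to 40, tolerance 0.05%), and approximate fragments from GENCODE transcript lengths on GRCh37, found for 95.6% of 12993 genes. These lengths may differ from those the authors used, so fragments and counting errors are approximate. Symbols, listed under older names, were matched through RefSeq. Haplotype rows of a member (6, all named MRPS18B) were left out.

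Genes named were those with the 5 highest and 5 lowest control levels and ratios, those past 1.5-fold, the 5 largest differences between si4 and si5, MRPS18A to MRPS18C, MRPS30, MRPS36 and the other mitochondrial ribosomal proteins. Further genes were picked after their values were seen. Members, lists and rules were chosen with earlier results of these data known. Alternatives covered scaling, pseudocount, length and GC, the limits, members and siRNAs. Scripts were tested on simulated data. Python 3.11.15, NumPy 2.4.6, pandas 2.3.3, SciPy 1.17.1 and matplotlib 3.10.9 were used.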

Additional observations from a re-analysis of the deposited data

Results flagged for a closer look

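MRPL33 was the only one of the 76 genes for which both siRNAs against ZSCAN5A lay on one side of the control and the siRNA against ZSCAN5B on the other. The share of all genes with this pattern was not counted. Of all genes, 30.0% were higher and 36.6% lower than the control with si4, si5 and si1 alike. Genes whose direction differed between the siRNAs were thus common, and such a split alone does not set MRPL33 apart from them. Its log2 ratio to the control was -0.629 for si4, -0.0721 for si5 and 0.238 for si1. The difference between the siRNAs was not tested, since each value comes from 1 library. The values of si4 and si5 were themselves further apart than those of si5 and si1.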

How the results depend on the processing

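With each library scaled to the same FPKM sum, the median log2 ratio of the members was 0.066 for ZSCAN5A and 0.12 for ZSCAN5B. The medians of all genes were then -0.17 and -0.15. Under this scaling 37 of the 76 members were higher with all 3 siRNAs, and the share of all genes was not counted. With the trend of length and GC content subtracted, the medians were 0.12 and 0.14. Then 1 member passed the fold limit for ZSCAN5B, upward, as did 0.533% of all genes. At the lowest fold limit tried, 125% of the control or its inverse, 14 members passed for ZSCAN5A and 24 for ZSCAN5B. At 1.5-fold, 2 passed with si4 alone. The median FPKM of MRPL over that of MRPS was 1.36 with si4 and 1.28 with si1 in place of 1.1 in the control. In each case the cause was not tested. The other alternatives moved the medians and the difference between MRPL and MRPS by less than the spread between libraries. Counts moved by less than 1.5 times, and none of these results changed its direction. For the log2 ratios that spread was the one between si4 and si5, so it cannot judge si4 alone or si5 alone. Their median log2 ratios were 0.26 and 0.14, against 0.22 for the mean of both. Leaving out overlapping members was chosen after seeing the data. No paired analysis was possible because each treatment has 1 library. With 1 library per siRNA, differences between cultures cannot be told apart from those between siRNAs.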
